A study of Parhyale hawaiensis with 10 samples.

Results

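A set of 4640 genomic regions was accessible to the Tn5 transposase in developing legs and at the last whole-embryo stage sampled, but was called neither in younger embryos nor in adult legs of the amphipod crustacean Parhyale hawaiensis. The regions were selected by peak calls alone. Peaks of the 9 libraries made from nuclei were merged where they overlapped or touched, and a region was kept when all 3 embryonic leg libraries and the stage 24 embryo had a peak in it and the embryos at stages 20 and 23 and the 3 adult leg libraries had none. Scaffolds also had to carry a peak ending at position 10000 or beyond in some library. The 4640 regions were 1.79% of the 259017 merged regions on such scaffolds, and 280946 regions were merged in all. Because calls chose them, the presence pattern and the strength of their peaks are given here as descriptions, without tests.

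ATAC-seq cuts DNA where it is not wrapped in nucleosomes, so that sequenced fragments pile up over promoters, enhancers and other regulatory DNA. Parhyale develops directly, and its hatchlings carry a complete set of legs that were patterned, segmented and differentiated inside the egg. Distal regulatory elements are in general more restricted to a tissue or stage than promoters are, and open and close as cells of a developing limb take on their fates. A whole embryo holds its legs together with all its other tissues, so a peak in a whole embryo does not show in which tissue the DNA was accessible.

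All animals came from the Chicago-F inbred line. Each whole embryo library, at stage 20, 23 or 24, came from a single animal, so a stage has no replicate. The 3 embryonic leg libraries were made from T4 to T8 legs dissected from pooled embryos of stages 25 to 26, and the 3 adult leg libraries from uninjured T4 and T5 legs, so that leg identity changes together with age. Whole embryos were dissociated by pipetting in lysis buffer and embryonic legs by passage through a needle with other detergents present. A further library was made by tagmenting naked DNA of a whole adult and took no part in the choice of regions. The labels do not say that the leg libraries came from separate animals, so the spread between them may be technical. The files hold peaks only, with no gene annotation and no read totals, and the sequence under the regions was not analysed here. The 9 nuclei lists held 48324 to 119994 peaks. Adult legs 1 stood apart from the other adult libraries: it called many more of the regions that otherwise meet the rule, and counts are given with and without it.

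The 4640 regions are the most restricted group of a large set. In total 34724 regions were called in all 3 embryonic legs and at stage 24, and of these 13.4% had no peak in any of the 5 other nuclei libraries, whereas 21.2% (7356 regions) had a peak in every one of them. Regions with a peak in exactly 1 of the 5 others numbered 6204. Among these, 3098 had their further peak in adult legs 1, 1396 at stage 20, 1141 at stage 23, 315 in adult legs 2 and 254 in adult legs 3. In the same order, these libraries called 26.4%, 20.1%, 19.2%, 16.5% and 16.1% of all regions. The lists of adult legs 1 to 3 held 76268, 49502 and 48324 peaks. Adult legs 1 thus took more regions out of the set than any other single library of the 5, and without that library the count was 7745. It was 7142 without embryonic legs 2 and 1871 when every library was trimmed to its 48324 strongest peaks. With a q-value of at most 1e-05 asked of every peak the count was 5358, but only 2104 of the 4640 regions were among them, because a stricter limit also removes the weak peaks in embryos and adult legs that had kept other regions out.

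**Figure D1:**
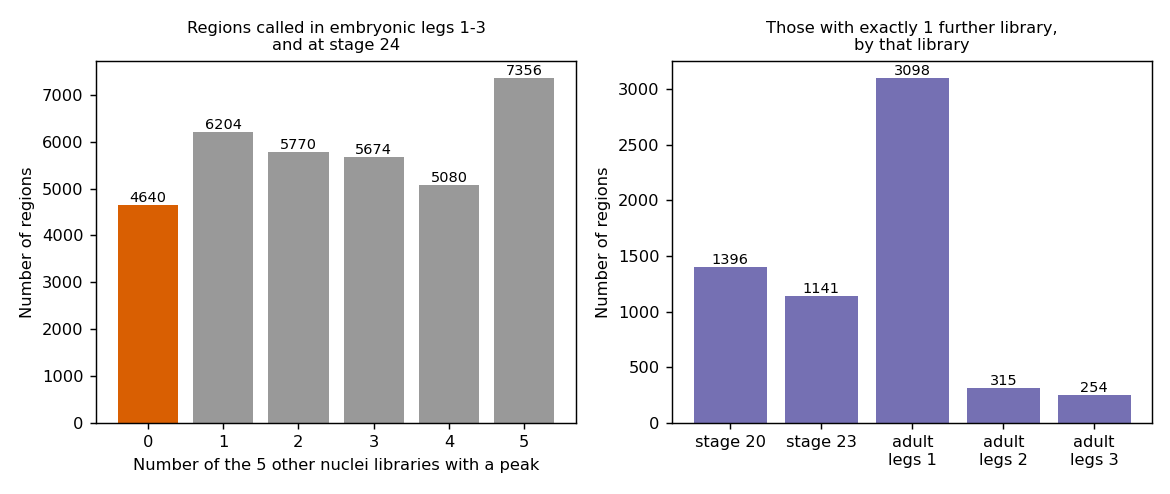
Left, numbers of regions called in embryonic legs 1 to 3 and at stage 24, by how many of the 5 other nuclei libraries also called them; the 4640 regions described here are the orange bar. Right, the 6204 regions with exactly 1 further library, by that library, with 3098 in adult legs 1.

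Regions that failed by a single missing call were also counted. With no peak in the 5 other libraries, 3168 regions were called in all 3 embryonic legs but not at stage 24. A further 2503 lacked only embryonic legs 2, 1861 lacked only embryonic legs 1, and 438 lacked only embryonic legs 3, the library with the longest leg list. The scaffold limit mattered little. It removed 89 of the 4729 regions with the right pattern of calls, and 99.1% of the 4640 lay on scaffolds with peaks reaching 1 Mb or beyond. The members nearest to the limit were at 1621 to 1894 of phaw_50.001307, whose last peak ends at 11430, and at 1717 to 2000 of phaw_50.001151, whose last peak ends at 11924, with mean folds of 6.96 and 4.48. The nearest regions left out were at 5892 to 6352 of phaw_50.000366 (last peak end 9531, mean fold 4.51) and at 6687 to 7151 of phaw_50.002078 (7514, mean fold 12.4).

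Peaks in these regions were of moderate strength. Strength is given as the authors' fold, the summit pileup of fragments plus 1 over the expected pileup plus 1, for the strongest peak of each library in the region. The median fold was 6.43 in embryonic legs 1, 6.12 in embryonic legs 2, 7.59 in embryonic legs 3 and 6.25 at stage 24. The middle 50% of regions lay between 5.03 and 8.47, 4.82 and 8.02, 5.77 and 10.1, and 5.00 and 8.05 in the same order. Embryonic legs 3 was the highest of the 4 and the others lay close together. The 4 lists are not on a common scale, since depth is divided out of a fold only in part. The stage 24 list also held no peak narrower than 200 bp, while the other nuclei lists had narrowest peaks of 122 to 152 bp, so its pileups and folds may have been made with other settings than those of the legs.

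**Figure D2:**
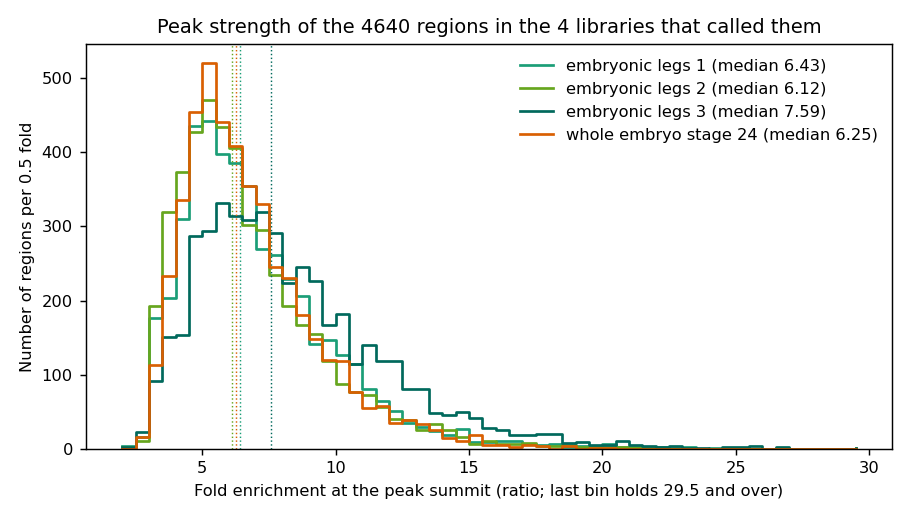
Number of regions (vertical axis, per 0.5 fold) by fold enrichment at the summit (horizontal axis, a ratio) for the 4640 regions in each calling library; dotted lines are medians. The 3 distributions of embryonic legs 1, embryonic legs 2 and stage 24 nearly coincide at medians of 6.12 to 6.43, and embryonic legs 3 is shifted to 7.59.

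The folds rest on small numbers of fragments. Fragments here are the units of the pileup, which the sources used here do not define and which may differ at stage 24. Whole-number pileups recovered from fold and p-value gave a median of 13 fragments at the summit in embryonic legs 1, 11 in embryonic legs 2, 17 in embryonic legs 3 and 13 at stage 24, and the weakest peaks had 4. The expected pileup at these summits was 2.19, 2.21 and 2.34 times the genome-wide background in embryonic legs 1 to 3 and 2.09 times at stage 24, at the median. The corresponding values over all peaks of each list were 1.61, 1.84, 1.43 and 1.66. Medians above background were not particular to the set. In embryonic legs 1 to 3 they were 2.03, 2.10 and 2.09 for embryonic leg regions without any embryo or adult leg peak. They were 1.87, 1.84 and 1.98 for embryonic leg regions called in a younger embryo but in no adult leg. Regions called in every leg library and at stage 24, but not earlier, had 3.27, 3.27 and 3.43. Regions called in every nuclei library had 4.29, 4.39 and 4.30. A q-value of at most 1e-05 was reached by 75.6%, 68.6% and 85.7% of regions in embryonic legs 1 to 3 and by 74.8% at stage 24. Over all peaks of the lists the shares were 59.1%, 63.2%, 56.5% and 62.7%. The rule asked for a call in 4 libraries, so higher shares than in single lists follow in part from the choice. By fold, the median rank of the regions within each list was at percentile 56.2, 48.2, 65.2 and 57.2 in the same order. All 4 peaks reached that q-value in 2104 regions (45.3%). The weakest of the 4 calls, by q-value, was that of embryonic legs 2 in 35.4% of regions and that of stage 24 in 34.3%.

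Most regions held 1 compact peak. The median merged width was 356 bp, and the middle 50% lay between 297 and 439 bp. Single-library peaks had median widths of 223, 202 and 243 bp in embryonic legs 1 to 3 and 278 bp at stage 24, and a lone summit was recorded in 96.8%, 96.8%, 94.0% and 99.4% of them. The mean fold over the 4 libraries ran from 3.14 to 25.2 with a median of 6.73. It was 10 or more in 551 regions (11.9%) and 15 or more in 58 (1.25%).

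Within a region, the stage 24 summit lay close to the embryonic leg summits. The rule asks only that the peaks fall in the same merged region. With a median region width of 356 bp and mostly lone summits, however, short distances are largely built in, and no expected distance was worked out. The median distance from the stage 24 summit to the embryonic leg summits of a region was 26 bp, and that between embryonic leg summits was 25 bp. Within 100 bp lay 91.9% of regions by the first distance and 89.6% by the second. In 4566 of the 4640 regions (98.4%) the 4 peaks had at least 1 base in common. Similar values were found in the 2228 regions called in all 6 leg libraries and at stage 24 but not earlier, with 23 bp to stage 24 and 16 bp between embryonic legs.

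**Figure D3:**
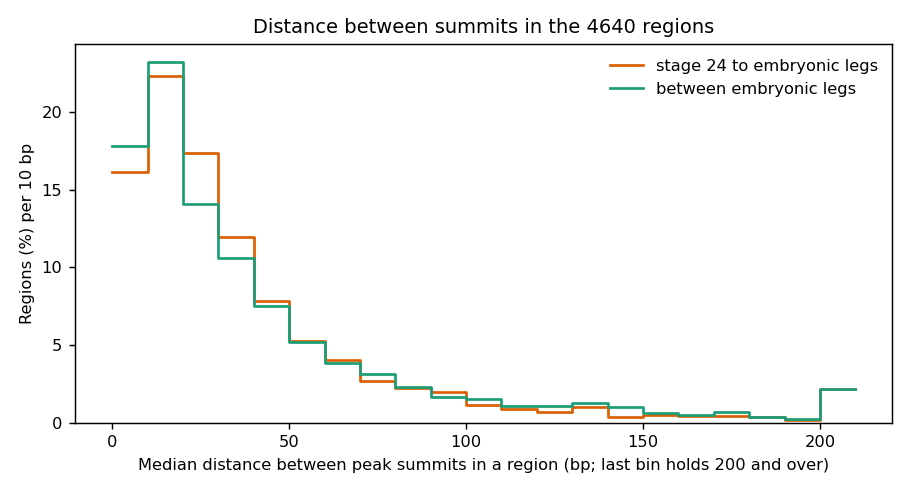
Share of the 4640 regions (vertical axis, percent per 10 bp) by the median distance between peak summits in the region (horizontal axis, bp). The orange line (stage 24 to embryonic legs, median 26 bp) and the green line (between embryonic legs, median 25 bp) run together.

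Strength at stage 24 followed strength in legs only loosely. Across the 4640 regions, log2 folds of pairs of embryonic leg libraries had Pearson coefficients of 0.64 to 0.67, while those of stage 24 with embryonic legs 1, 2 and 3 were 0.35, 0.29 and 0.39. The Spearman coefficients were 0.60 to 0.65 and 0.32, 0.27 and 0.37. These describe the regions, which share libraries and were all cut off at the calling limit. Stage 24 had the lowest fold of the 4 in 35.2% of regions and the highest in 24.4%. In the leg-wide regions that begin at stage 24 it was lowest in 67.4% and highest in 8.21%. In embryonic leg regions that were absent from adult legs and had been called at stage 20 or 23, and also at stage 24 (3588 regions), it was lowest in 23.0% and highest in 37.0%.

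The strongest regions were named by a rule, the 12 with the largest mean fold over the 4 libraries. The first was at 34436253 to 34436502 of phaw_50.283811. Its fold was 26.8, 29.9 and 34.4 in embryonic legs 1 to 3 and 9.64 at stage 24, and its pileups were 79, 80 and 96 fragments in the legs and 14 in the embryo. The fold over the 3 leg libraries was 30.4 ± 3.85 (SD, n = 3), and the single stage 24 value lay below all of them. The second, at 16943389 to 16943775 of phaw_50.282396a, had folds of 24.6, 26.7 and 25.6 in embryonic legs and 12.7 at stage 24. The third, at 24864094 to 24864407 of phaw_50.282543b, had 22.7, 18.8 and 25.7 in embryonic legs and 13.5 at stage 24, where 37 fragments overlapped its summit.

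The fourth stood out by its stage 24 peak. It lay at 3236234 to 3236579 of phaw_50.283850c, with folds of 16.7, 17.0 and 26.6 in embryonic legs 1 to 3 and 18.9 at stage 24, the highest stage 24 fold of the 12. Its nearest fellow region was farther off than that of any other of the 12. A region at 7398160 to 7398510 of phaw_50.015400a was the most even of them, with 20.3, 16.7 and 20.9 in embryonic legs and 17.5 at stage 24. At the other end, the region at 12029431 to 12029743 of phaw_50.282861e had 22.2, 17.3 and 27.0 in embryonic legs but 6.43 at stage 24, from a pileup of 9 fragments.

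Several features of the 12 had no part in choosing them. They lay on 12 different scaffolds, were 250 to 407 bp wide, and each had 1 summit in each of the 4 libraries. A lone summit was also usual in the 4640 regions, at 94.0% to 99.4% per library. Their stage 24 summit was 1 to 31 bp from the embryonic leg summits. None overlapped a naked DNA peak, but 12 regions are too few to set this apart from the 7.07% of all 4640 regions. The mean folds that chose them were 18.2 to 25.2. They averaged 3 leg libraries and 1 embryo, and in 9 of the 12 the stage 24 fold was below all 3 leg folds. The region at 14973906 to 14974208 of phaw_50.007301c had another member only 837 bp away, the smallest such gap among the 12, and pileups of 123 and 90 fragments in embryonic legs 1 and 2. The weakest of the 4640, at 1994979 to 1995309 of phaw_50.283826, had folds of 2.64, 3.42 and 2.80 in embryonic legs and 3.69 at stage 24.

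Naked DNA gives the background of the assay, because the transposase prefers some sequences even without chromatin. Naked DNA peaks were found in 328 of the 4640 regions (7.07%, 95% Wilson interval 6.37% to 7.84%), against 15.7% of all 259017 regions. The share was 9.28% (8.32% to 10.3%) for the 3168 embryonic leg regions without any embryo peak. It was 13.3% (12.3% to 14.4%) for the 4161 embryonic leg regions called at stage 20 or 23 and 12.7% (11.4% to 14.1%) for the 2228 leg-wide regions that begin at stage 24. For the 7356 regions called in all 9 libraries it was 37.0% (35.9% to 38.1%). The stage-24-shared regions had the lowest share of these classes, and they were wider than the regions without an embryo peak (median 356 against 310 bp) but narrower than the others (435, 489.5 and 674 bp). Naked DNA is 1 library and regions are not independent replicates, so the intervals cover counting error only and the difference was not tested.

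The overlap showed no steady order with peak strength. In 4 equal groups of increasing mean fold, 6.81%, 8.28%, 6.72% and 6.47% of the regions overlapped naked DNA. The overlap was also mostly off centre. In 81 of the 328 regions a naked DNA summit lay within 100 bp of the embryonic leg summit, which is 24.7% of them. This was close to the 25.4% of leg-wide regions from stage 24, the 27.6% of regions without an embryo peak and the 30.7% of those called at stage 20 or 23, and below the 43.5% of regions called in all 9 libraries. The 81 make up 1.75% of the 4640 regions, and the same count was 16.1% of the regions called in all 9.

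Libraries other than stage 24 were left out of the choice in turn, and the share of the regions then chosen that the left-out library called was counted. The full rule uses the calls of every nuclei library, so these shares largely restate counts of neighbouring classes. For example, the 1396 regions with a further peak at stage 20 alone are those that stage 20 called among 6036 chosen without it. The shares and their tests are therefore not independent of the rule. Regions were merged and chosen again from the other 8 nuclei libraries, once with and once without a stage 24 peak, and the rest of the rule was kept. Shares over all regions, given beside them as a scale, come from regions merged with the left-out library included. The remaining leg libraries took part in the choice, so the distance from those shares follows in part from the rule. Embryonic legs 1 called 71.4% of the 6511 regions chosen with stage 24 and 55.1% of the 5761 without it, where 30.6% of all regions were called in that library. For embryonic legs 2 the shares were 65.0% and 50.8%, against 27.2% of all regions. For embryonic legs 3 they were 91.4% and 78.6%, against 42.5%. A region seen at stage 24 was therefore found in the remaining leg library more often than one seen in legs alone, in 3 of 3 libraries. The mean shares were 75.9% ± 13.8 and 61.5% ± 14.99, and the difference was 14.4 ± 1.81 percentage points (SD, n = 3; exact two-sided sign-flip permutation p = 0.25, the smallest that 3 pairs allow).

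Regions with a stage 24 peak were also stronger in legs, and this moved with the result. The median fold in the remaining leg libraries was 6.40, 6.31 and 6.18 with a stage 24 peak and 5.32, 5.04 and 5.23 without one, for embryonic legs 1, 2 and 3 left out. Averaged over 4 groups of equal size by that fold, a grouping added after the data were seen, the difference was 9.40, 3.71 and 8.44 percentage points, a mean of 7.18 ± 3.05 (SD, n = 3; exact two-sided permutation p = 0.25). It was above 0 in 11 of the 12 groups.

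**Figure D4:**
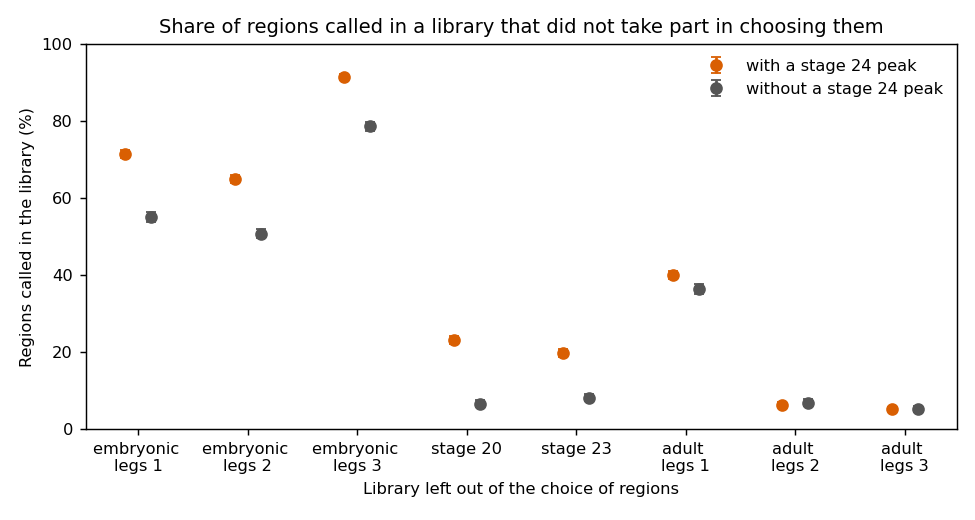
Share of regions called (vertical axis, percent, with 95% Wilson intervals) in a library that took no part in choosing them (horizontal axis), for regions chosen with a stage 24 peak (orange) and without one (grey). The orange points lie 12.7 to 16.3 points above the grey ones in embryonic legs and within 3.7 points of them in adult legs.

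Adult leg libraries left out in the same way behaved differently among themselves. Adult legs 1 called 40.1% of the 7745 regions chosen with stage 24 and 36.4% of the 4983 chosen without, against 26.4% of all regions. Adult legs 2 called 6.36% and 6.93%, against 16.5% of all regions, and adult legs 3 called 5.21% and 5.23%, against 16.1%. These regions had to lack a peak in the remaining adult legs and in the younger embryos, so low shares follow in part from the choice. Adult legs 1 thus called far more of them than the other adult libraries did. The difference between regions with and without a stage 24 peak was 1.02 ± 2.307 percentage points (SD, n = 3; exact two-sided permutation p = 1), above 0 in 1 of 3 libraries, so its sign was not the same in all adult libraries.

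Both younger embryos also called regions with a stage 24 peak more often. Left out of the rule, the stage 20 embryo called 23.1% of the 6036 regions that had a stage 24 peak and 6.60% of the 3392 that had none, where it called 20.1% of all regions. The stage 23 embryo called 19.7% of 5782 and 8.12% of 3448, where it called 19.2% of all regions. Each is 1 animal, and the differences of 16.5 and 11.6 points have no replicate check. Averaged over the 4 groups of leg peak strength, they were 16.0 points for stage 20 and 10.2 for stage 23. Both lay above the 9.40, 3.71 and 8.44 points of embryonic legs 1 to 3, so a higher share with a stage 24 peak was not particular to legs. The rule asked different things of the remaining libraries in each case, so the sizes are not on an equal footing.

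Whether peaks of this strength could have been seen in the 5 libraries without a call was worked out from the regions called in all 9 libraries. The leg pileup and the expected pileup of each of the 4640 regions were each scaled by their own median ratio found there. Those regions were chosen for a call in every library, which may favour a call on this scale. They were also stronger, with median pileups of 46, 42 and 57 fragments in embryonic legs 1 to 3, against 13, 11 and 17. Their ratios need not hold for the 4640 regions. On this scale 99.9% of regions would have passed the weakest p-value listed for adult legs 1, 91.6% that of adult legs 2 and 90.0% that of adult legs 3. Only 41.8% would have passed it at stage 20 and 52.1% at stage 23, where the median scaled pileup was 3 fragments. This ratio holds depth and enrichment together. When background pileup alone set the scale, the shares were 97.7% to 100% in all 5 libraries. How many of the regions could have been called in the younger embryos therefore depended on the scaling, and both scalings were chosen after the data were seen. Whether the DNA was inaccessible where a library had no peak was not tested.

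The regions were spread over 181 scaffolds. The median gap between neighbours of the set was 132911 bp. It was 71055 bp without adult legs 1 and 343306 bp with lists of equal length, since more or fewer regions then qualify. Another region of any kind lay within 10 kb of 95.4% of them (median distance 2189 bp). That share was 94.5% for regions without an embryo peak and 91.8% for those called at stage 20 or 23. It was 93.5% for leg-wide regions from stage 24 and 86.8% for regions called in all 9 libraries. A fellow member lay within 10 kb of 628 of the 4640 (13.5%). The share with a fellow of the same class was 10.5% for regions without an embryo peak. It was 8.12% for those called at stage 20 or 23 and 8.93% for leg-wide regions from stage 24. It was highest, at 17.7%, for the 7356 regions called in all 9 libraries. The shares were not adjusted for the number of regions in a class. A region called in all 6 leg libraries was found within 10 kb of 991 of the 4640 (21.4%), close to the 21.3% of regions without an embryo peak and above the 15.6% of those called at stage 20 or 23. The 21.4% fell to 12.5% when a peak had to cover at least 50% of a region.

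Scaffolds differed in how many such regions they held. Among the 91 scaffolds with at least 1000 regions, the share that belonged to the set ranged from 0.180% to 3.97%, with a median of 1.77%, around the 1.79% of all regions. On phaw_50.015400a 123 of 3099 regions belonged to it (3.97%, Wilson interval 3.34% to 4.72%), and on phaw_50.283850a 181 of 5348 (3.38%, 2.93% to 3.90%). On phaw_50.282260b it was 2 of 1113 (0.180%, 0.0493% to 0.653%), and on phaw_50.283861a 2 of 1009 (0.198%). The interval lay above the share of all regions in 27 scaffolds and below it in 31. Neighbouring regions are not independent, so these intervals are too narrow.

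Clusters were counted in windows of 100 kb. A member was found in 3422 of 26686 windows with a region, and 255 windows held 3 or more, together 865 members. The window with the most held 9 members, at 25.4 to 25.5 Mb of phaw_50.282695a, and the next held 7, at 0.5 to 0.6 Mb of phaw_50.283872a. Next came 3 windows with 6 members each, on phaw_50.000135c (12.8 to 12.9 Mb), phaw_50.000135e (7.5 to 7.6 Mb) and phaw_50.283468a (7.8 to 7.9 Mb). The window after the first one on phaw_50.282695a, at 25.5 to 25.6 Mb, held 5 more. The highest counts in a window were 6 for regions without an embryo peak, and 5 each for those called at stage 20 or 23 and for leg-wide regions from stage 24.

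The first window shows how the regions sit among others. Its 9 members spanned 91.2 kb, from 25405835 to 25497062, with gaps of 1380 to 26830 bp. None of the 23 regions of the window, members or not, overlapped naked DNA, where 15.7% of all regions and 7.07% of the 4640 did. This is 1 window picked for its member count, and the difference was not tested. The strongest member by mean fold was the one at 25449586 to 25450952, a wide region of 1367 bp with folds of 11.2, 11.1 and 13.5 in embryonic legs 1 to 3 and 7.40 at stage 24. It lay next to a region at 25448634 to 25449167 that was called in both younger embryos and in adult legs 1 and 3. The member at 25422048 to 25422410 was strongest at stage 24, with a fold of 11.8 there against 10.4, 8.00 and 8.84 in embryonic legs. The member at 25441226 to 25441705 was the opposite, at 5.00 against 8.21, 8.50 and 14.7.

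The remaining members of the window had mean folds of 5.15 to 10.2. That at 25415525 to 25416133 had 7.90, 8.27 and 12.3 in embryonic legs and 10.1 at stage 24. That at 25496378 to 25497062 had 12.2, 10.04 and 12.1, and 6.32 at stage 24, and that at 25483060 to 25483645 had 10.06, 9.80 and 10.6, and 4.59. The first member, at 25405835 to 25406458, had 7.67, 6.41 and 4.22, and 4.95 at stage 24. The members at 25477783 to 25478087 and at 25481337 to 25481679 had stage 24 folds of 3.81 and 4.72, below all their leg folds. Of the 9, 6 had their lowest fold at stage 24. The 14 other regions of the window included 7 called in all 3 embryonic legs, 3 called in both younger embryos and 3 called in an adult leg.

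**Figure D5:**
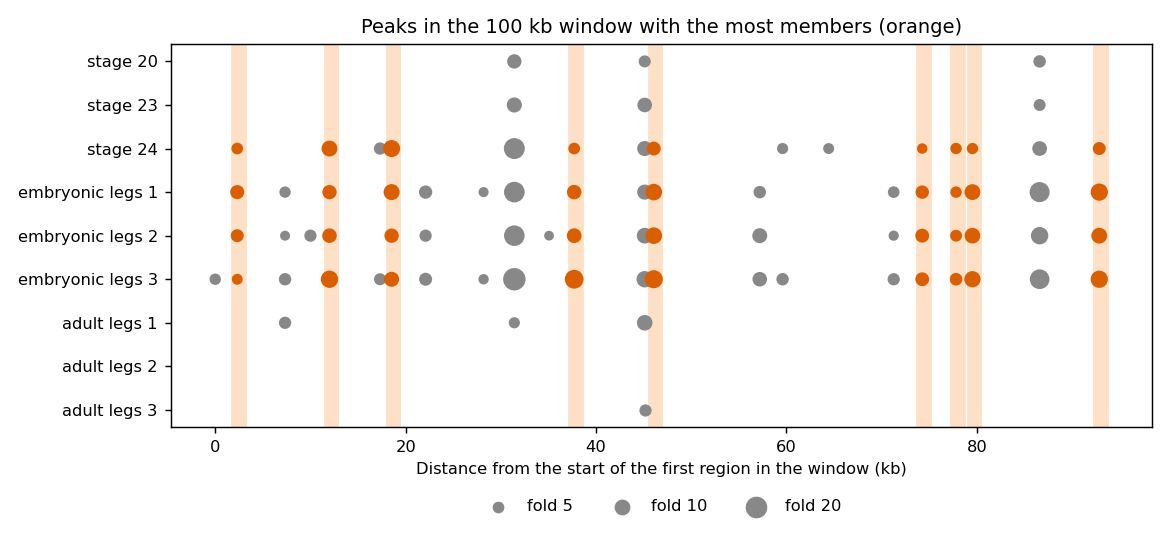
Peaks of the 9 nuclei libraries (rows) along the 100 kb window with the most members, by distance from the start of its first region (horizontal axis, kb); the area of a dot is proportional to fold, and members are orange. Members have dots in embryonic legs 1 to 3 and at stage 24 alone, with folds of 3.81 to 14.7.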

How the data were processed

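The deposited files are peak lists of single libraries (ATAC-seq, 9 of nuclei and 1 of naked DNA). Per the submitters' processing notes, the tools were MACS2 2.2.7.1, Picard, Bowtie2 2.5.4, bedtools 2.31.1 and SAMtools 1.21, with no roles stated. The genome build was not given, nor control, threshold or Tn5 shift, in the sources used here. The deposited fold is a ratio; significance was deposited by the authors as −log10 of p-values and q-values. The deposited display score was not used. Depth is not stated; pileups were recovered from fold and p-value (tolerance 0.002 in −log10 p), and the most frequent expected pileup (0.233 to 0.555) is the background.

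Rows of 1 peak with several summits were counted as 1 peak, represented by its strongest summit. Computation used scipy 1.17.1, pandas 2.3.3 and numpy 2.4.6 under Python 3.11.15 and was checked on simulated lists. Held-out shares were compared with an exact sign-flip permutation test over libraries. The members, classes and tests were chosen with earlier results of these data known. Named regions were the 12 of largest mean fold, the members of the richest 100 kb window with counts of the next windows, and those beside the scaffold limit. Counting intervals are 95% Wilson and cover counting error only. Alternatives were a q-value limit of 1e-05, lists of equal length, a 50% overlap, removal of naked DNA peaks, other scaffold limits and leaving out libraries. Motifs and base composition were planned but not run; no genome was used here.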

Additional observations from a re-analysis of the deposited data

Results flagged for a closer look

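In a library left out of the rule, the difference in recovery between regions with and without a stage 24 peak had opposite signs in embryonic and adult leg libraries. This was seen once regions were compared within 4 groups of similar leg peak strength, a setting chosen after the data were seen. The share with minus the share without a stage 24 peak was 9.40, 3.71 and 8.44 percentage points in embryonic legs 1 to 3, and −1.69, −0.858 and −0.291 in adult legs 1 to 3. All 3 embryonic leg values were above 0 and all 3 adult leg values below it, with means of 7.18 and −0.946. These points are not on an equal footing. The rule asked for a peak in the remaining embryonic legs but for none in the remaining adult legs. Before grouping, embryonic legs called 50.8% to 91.4% of the regions, adult legs 1 36.4% and 40.1%, and adult legs 2 and 3 only 5.21% to 6.93%. The contrast in points therefore cannot be read as a difference between leg types. The difference between the means was 8.13 points (exact two-sided permutation p = 0.1, n = 3 each, the smallest possible). Without this grouping, adult legs 1 was at 3.67, so the contrast in sign depends on that setting.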

How the results depend on the processing

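The rule depends on calling limits: a q-value of at most 1e-05 kept 2104 of the 4640 regions and brought in others, for 5358 in all, and lists of equal length gave 1871, of which 1375 were shared. Asking a peak to cover at least 50% of the region gave 4065, with 2494 shared. The 50% overlap planned at first (of either interval) equals 1 bp, since peaks lie inside merged regions. Under the q-value limit, the median mean fold was 8.53, the naked DNA share 8.47%, the summit distance 20 bp, the share with a common base 99.7%, the gap between members 115222 bp and the share near a leg-wide region 16.4%. With equal lists these were 8.97, 6.20%, 17 bp, 99.8%, 343306 bp and 24.3%. Covering 50% gave a fold of 7.64, 24 bp, 100% with a common base and 12.5% near a leg-wide region. Removing naked DNA peaks gave 19.3% for the last. Without the stage 20 embryo, fold, naked DNA share and gap were 6.86, 8.13% and 104871 bp; without stage 23, fold, gap and leg-wide share were 6.85, 120841 bp and 19.9%. Leaving out a leg library gave counts of 4895 to 7745, folds of 6.30 to 7.18, naked DNA shares of 7.098% to 7.90%, summit distances of 25 to 30.5 bp, common-base shares of 98.2% to 98.9%, gaps of 71055 to 127453 bp and leg-wide shares of 19.6% to 27.8%. The held-out difference kept its sign in embryonic legs in all 9 alternatives; in adult legs it reversed to −0.946 within the 4 groups of strength. The cause was not tested. Covering 50%, leaving out stage 20 or 23, merging the 4 calling libraries alone (4641 regions), asking for a common base and the groups of strength were chosen after seeing the data. The held-out tests within a leg type were paired by library. With the replicate number as a block, also added later, the contrast between leg types stayed at 8.13 points (exact sign-flip permutation p = 0.25, 3 pairs; 0.1 without the block). Deviations of log2 fold in same-numbered embryonic and adult libraries had correlations of −0.16, −0.13 and −0.03. Differently numbered pairs had −0.04 to 0.17. Whether same-numbered libraries share more than a number, such as a preparation, cannot be told from these values. Motif shares and base composition were not run.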
